A study of Mus musculus with 30 samples.

Results

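The 33 genes described here carry out or control the synthesis of cholesterol and fatty acids, the pathways switched by the SREBP transcription factors. They were chosen by symbol and found by their Ensembl IDs among the 32361 gene IDs of the count table. The sterol branch held 19 of them, the fatty acid branch 8, the regulators 5, and Stard4, a carrier that moves cholesterol between membranes, made up the rest. All 33 were among the 15119 genes that passed the filter on low counts.

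In cells low in sterol, the escort protein SCAP carries the SREBP precursors from the endoplasmic reticulum to the Golgi, where they are cut and freed to enter the nucleus. When sterol is plentiful, INSIG1 and INSIG2 hold SCAP back in the endoplasmic reticulum. SREBP2, from Srebf2, acts mainly on sterol genes and SREBP1, from Srebf1, mainly on fatty acid genes. Oxysterols such as the product of the enzyme CH25H also act through INSIG, and macrophages make that enzyme in large amounts after interferon.

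RNA was measured in macrophages grown from C57BL/6J mouse bone marrow, in medium with L929 supernatant as the source of macrophage colony-stimulating factor. The KO groups came from Ticam2-/- mice, which lack TRAM, the adaptor that joins Toll-like receptor 4 to the interferon-inducing arm through TRIF, and the WT groups from mice with an intact gene. The sources used here give neither how the deleted allele was made nor the age of the mice. In each genotype the cells received lipopolysaccharide (LPS, sensed by Toll-like receptor 4) at 10 ng/mL, or lipoteichoic acid (LTA, sensed mainly by Toll-like receptor 2) at 100 ng/mL, for 2 h or 6 h, or were left untreated. The 10 groups had 3 libraries each, 1 per animal. The p-values rest on the spread between libraries within a group, estimated over all 10 groups together. Which libraries of different groups share an animal is not known.

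The 12 libraries of 2 h held 1334784 to 2658329 counts, and the 18 untreated and 6 h libraries held 10641070 to 13521660. There was no untreated library in the shallower set, so a comparison of 2 h with untreated also crosses the sets, and time and set cannot be told apart. Ticam2 had 5 to 26 counts per KO library against 120.5 to 259.5 per WT library in the deeper set, and 1 to 14 against 15 to 28 at 2 h. All 7 macrophage markers were present, with a summed level of 22600 to 30800 CPM of the library total in KO libraries and 14100 to 34000 in WT libraries. Of other cell types, hepatocyte markers summed to 45.6 to 91.4 CPM at 2 h against 20.9 to 29.5 in the deeper set. Members of that list went opposite ways. Alb, Fgb and Fgg had no counts in the deeper set, and Apoc3 and Ttr had none at 2 h. Fibroblast markers summed to 57.0 to 123 CPM at 2 h against 3.01 to 5.97, and red blood cell markers to at most 0.456 against 5600 to 7730. Mitochondrial genes held 4.85% to 6.87% of counts at 2 h against 2.62% to 3.93% in the deeper set. The part of these differences in the 2 h results was not tested.

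Levels are CPM, counts scaled to a common library size by TMM, a method that sets the bulk of genes equal between libraries, and a gene is called when its adjusted p in edgeR's quasi-likelihood test is under 0.05. Total-count scaling gives another zero point. Under it the median of all 15119 tested genes lay at -0.66 (log2) in WT cells after LPS for 6 h and at -0.58 after LTA, and at -0.19 and -0.18 in KO cells after the same ligands. Under TMM these medians were 0.03, 0.01, 0.01 and 0.00.

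Start sites of 26 of the 33 genes could be read from RefSeq on GRCm38.p6, as windows of 250 bases before to 50 after each start site, with more than 1 window for some genes. A gene counts as holding a motif when any of its windows does. The sterol element TCACNCCAC, the sequence that SREBP proteins bind, was searched on both strands and stood in 1 of the 26, Hmgcs1, against 1.44% of 27025 genes. Its shorter form CACNCCAC, which lies within the longer one, stood in 3 (Acat2, Hmgcs1 and Insig1), against 7.12% of genes. The box CCAAT, bound by NF-Y, a common partner of SREBP, stood in 21 of the 26 genes, or 80.8%, against 41.1% of all genes. The interferon motif ISRE, searched as GAAA and again GAAA with any 2 bases between them on either strand, stood in Ggps1 and Ebp, 7.69% of the 26 genes against 3.99% of all genes. A match describes the letters in the window and nothing about binding. 4 windows are shown, 5′ to 3′ on the gene's strand, and capitals mark the motifs. They are those of the gene with the sterol element, of 2 enzymes with 3 or 5 CCAAT boxes and of Ggps1. Ggps1 was the sterol branch gene higher in WT cells after both ligands under TMM. Its values were -0.03 and -0.21 (log2) under total-count scaling. Ebp, the other gene with the interferon motif, was lower after both ligands in both genotypes under TMM. Whether the motif bears on either gene was not tested.
Hmgcs1 (chr13:119690101-119690400, plus strand): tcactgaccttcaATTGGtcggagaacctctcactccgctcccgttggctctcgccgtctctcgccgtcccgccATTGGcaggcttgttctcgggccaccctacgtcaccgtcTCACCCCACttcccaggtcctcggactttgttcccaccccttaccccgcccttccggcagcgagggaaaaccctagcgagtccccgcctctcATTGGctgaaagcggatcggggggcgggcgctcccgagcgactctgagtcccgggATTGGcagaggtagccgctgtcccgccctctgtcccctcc
Mvk (chr5:114444019-114444318, plus strand): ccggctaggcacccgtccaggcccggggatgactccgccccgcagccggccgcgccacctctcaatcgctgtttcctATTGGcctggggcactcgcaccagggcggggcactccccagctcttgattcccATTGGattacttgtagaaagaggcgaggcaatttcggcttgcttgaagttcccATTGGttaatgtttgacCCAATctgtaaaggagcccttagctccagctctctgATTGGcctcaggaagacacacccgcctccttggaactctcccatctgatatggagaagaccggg
Msmo1 (chr8:64733529-64733828, minus strand): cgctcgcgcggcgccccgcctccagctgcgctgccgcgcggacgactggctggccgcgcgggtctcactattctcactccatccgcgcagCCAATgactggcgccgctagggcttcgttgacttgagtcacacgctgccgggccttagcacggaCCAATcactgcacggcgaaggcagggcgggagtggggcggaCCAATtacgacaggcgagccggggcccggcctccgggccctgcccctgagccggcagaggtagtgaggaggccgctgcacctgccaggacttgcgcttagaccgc
Ggps1 (chr13:14063439-14063738, minus strand): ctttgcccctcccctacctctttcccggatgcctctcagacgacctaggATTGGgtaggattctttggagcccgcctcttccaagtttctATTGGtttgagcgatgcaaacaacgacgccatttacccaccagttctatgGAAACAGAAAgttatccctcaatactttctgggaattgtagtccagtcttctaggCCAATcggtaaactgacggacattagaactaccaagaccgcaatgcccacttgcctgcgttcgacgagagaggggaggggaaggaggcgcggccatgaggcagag
Hmgcs1 holds the sterol element at bases -137 to -129 from the start site, on the gene's own strand, and CCAAT boxes on the opposite strand, printed as ATTGG. In Ggps1 the interferon motif lies at bases -110 to -101.

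In WT macrophages, 6 h of LPS lowered most of the pathway. Of 33 genes, 23 were lower and 3 higher than in untreated WT cells, against 36.1% lower and 36.6% higher over all tested genes. The sterol branch had 15 of 19 lower and 1 higher, with a median log2 change of -0.95, and the fatty acid branch 6 of 8 lower and 0 higher, with a median of -1.17. LTA gave 22 lower and 3 higher, against 35.9% and 35.4% of all genes, with medians of -0.83 in the sterol branch and -0.89 in the fatty acid branch. Under total-count scaling 0 genes were higher and 31 lower after each ligand. The sterol branch then had 18 of 19 lower after LPS and 19 after LTA, with medians of -1.64 and -1.42, and the fatty acid branch 7 of 8 lower after each ligand, with medians of -1.86 and -1.49. The ligand comparisons share the untreated libraries. The summed macrophage markers were 14100 to 15400 CPM of the library total in these WT libraries after LPS and 17000 to 17400 after LTA. Untreated WT libraries had 28000 to 29400, and Lyz2 made up most of the sum. Under TMM, Lyz2, Cd68 and Mertk were lower after LPS than in untreated WT libraries, and Csf1r overlapped. Adgre1 (905.54 to 1026.1 against 759.16 to 801.7 CPM), Itgam and Fcgr1 were higher after LPS. After LTA, Adgre1, Itgam and Csf1r were higher, and Lyz2, Cd68, Mertk and Fcgr1 lower. Neutrophil markers, 4 of 5 in the table, summed to 16.9 to 18.3 after LPS and 16.4 to 20.1 after LTA, against 8.83 to 11.9 in untreated WT libraries. In WT libraries this sum was S100a8 and S100a9 alone, since Ly6g and Elane were at 0. In KO libraries the neutrophil markers summed to 8.76 to 11.4 after LPS and 10.1 to 11.1 after LTA, against 8.14 to 10.5 untreated. The part of either marker list in the result was not tested. In bulk RNA a lower level per cell and fewer cells that express a gene cannot be told apart.

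**Figure D1:**
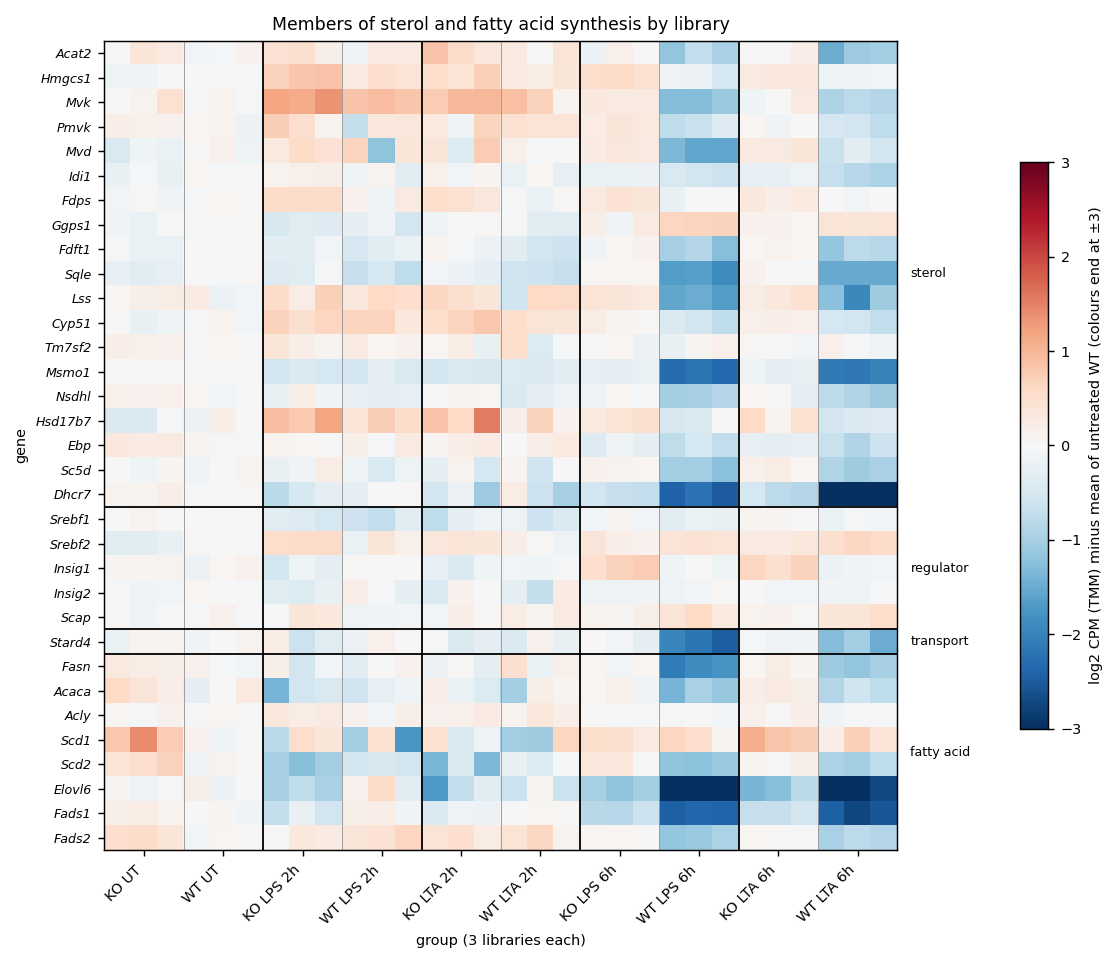
Each cell is 1 of 33 genes (rows, in the order of the pathway) in 1 of 30 libraries (columns, 3 per group, UT for untreated), coloured by log2 CPM after TMM scaling minus the mean of untreated WT, with colours that end at ±3. The WT columns after 6 h of LPS or LTA are blue over most sterol and fatty acid genes. Elovl6 is past the end of the scale in most of these WT columns, and Dhcr7 in those after LTA. In the KO columns of the same hours Elovl6 and Fads1 are pale blue and Hmgcs1 and Srebf2 are not blue.

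In KO macrophages the same 6 h gave calls in both directions, at shares near those of all genes. After LPS 11 genes were higher and 10 lower than in untreated KO cells, against 25.7% and 26.6% of all tested genes, and after LTA 10 were higher and 8 lower, against 25.7% and 26.5%. Under TMM, in the sterol branch 8 were higher and 3 lower after LPS, and 8 and 4 after LTA, with medians of 0.14 and 0.16. In the fatty acid branch 0 were higher and 7 of 8 lower after LPS, and 0 and 4 after LTA, with medians of -0.41 and -0.31. Total-count scaling moved the split of the sterol branch to 4 higher and 7 lower after LPS and 4 and 9 after LTA, with medians of -0.06 and -0.02. The fatty acid branch then had 0 higher and 8 lower after LPS and 0 and 6 after LTA, with medians of -0.60 and -0.49. Over all 33 genes that scaling gave 6 higher and 18 lower after LPS, and 6 and 17 after LTA, and the 6 were the same after both ligands, namely Hmgcs1, Mvd, Fdps, Hsd17b7, Srebf2 and Insig1. Without untreated KO replicate 2 the higher count after LPS was 7, with Ggps1 (adjusted p = 0.108), Fdft1 (0.11), Cyp51 (0.106) and Scap (0.171) no longer called.

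**Figure D2:**
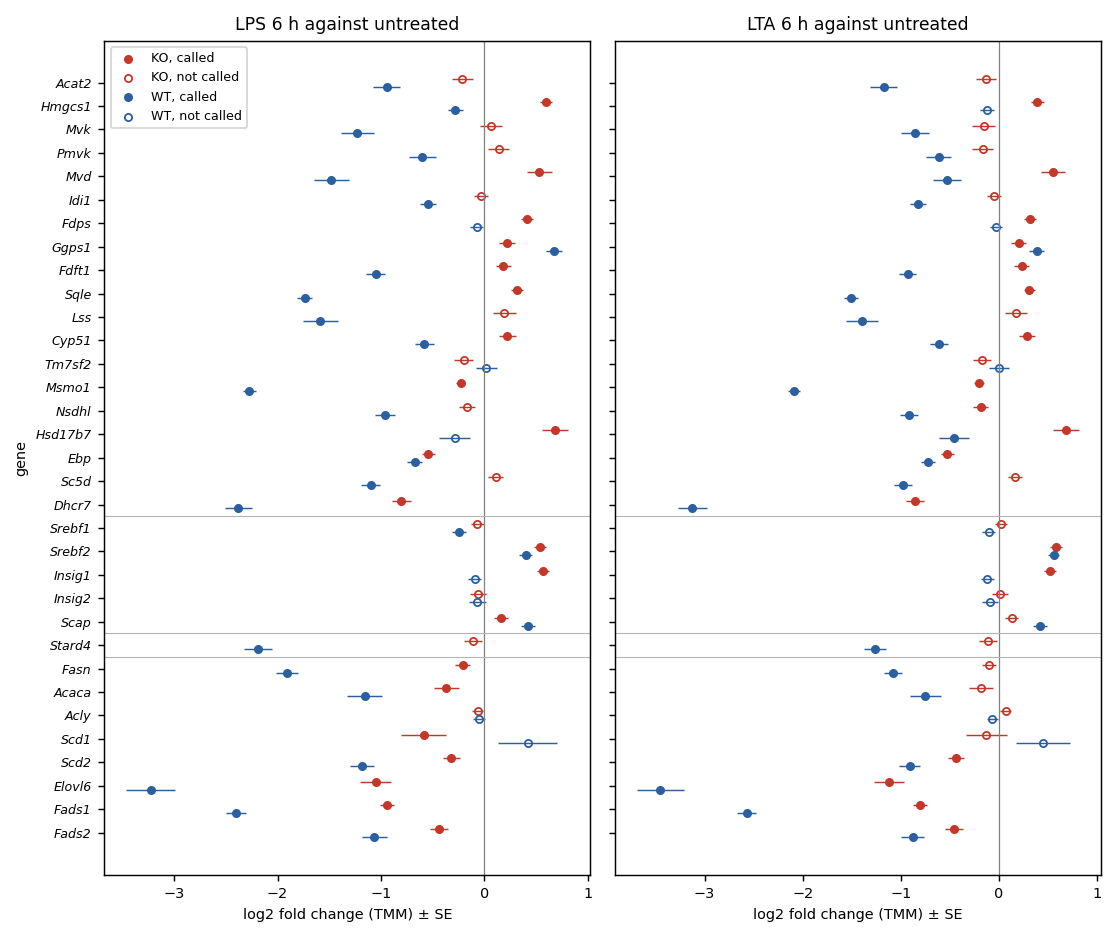
Log2 fold change of each gene after 6 h of LPS (left) or LTA (right) against untreated cells of the same genotype, under TMM, with standard errors, for KO (red, upper of each pair) and WT (blue). Filled points have an adjusted p under 0.05. The WT points lie left of the KO points for most sterol and fatty acid genes, from -3.22 for Elovl6 after LPS and -3.45 after LTA, while KO points lie between -1.12 and 0.68.

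Set against each other after LPS for 6 h, 26 genes were higher in KO than in WT cells and 3 lower, against 32.7% and 30.6% of all tested genes, and after LTA 27 were higher and 3 lower, against 30.5% and 28.0%. In the sterol branch 17 of 19 were higher in KO cells after each ligand, with medians of 0.93 and 0.86. In the fatty acid branch 6 of 8 were higher after LPS and 7 of 8 after LTA, with medians of 1.29 and 0.98. The 3 lower genes were Ggps1, Srebf2 and Scap after both ligands. Under total-count scaling 31 were higher and 0 lower after each ligand, where the median of all genes lay at 0.54 after LPS and 0.44 after LTA, and those 3 genes were then above 0, except Ggps1 after LPS at -0.02, which was not called. Srebf2 after LPS was also not called without KO LPS replicate 2 (adjusted p = 0.0667) or 3 (0.169), or without the filter on low counts (0.186).

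The response itself differed between genotypes, as tested by the interaction of genotype and treatment. For LPS, KO response minus WT response was above 0 in 24 of 33 genes and below 0 in 3, against 27.0% and 23.5% of all tested genes. For LTA it was above 0 in 24 and below 0 in 1, against 24.8% and 20.1%. Under total-count scaling the counts were 30 and 0 for LPS and 29 and 0 for LTA. Since Ticam2 acts downstream of Toll-like receptor 4 and LTA is sensed mainly by another receptor, the LTA values are given beside the LPS values throughout.

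The mevalonate enzymes build the isoprenoid units of sterols. Hmgcs1, which makes the precursor HMG-CoA, had 46.7, 48.3 and 45.1 CPM in KO cells after LPS for 6 h, against 29.5, 28.8 and 22.5 in WT cells. After LTA the level was 39.2, 40.7 and 41.6 CPM in KO cells, against 29.4, 29.6 and 30.9 in WT cells. The untreated level was 29.7, 30.2 and 32.5 CPM in KO cells, against 33.1, 32.9 and 31.9 in WT cells. All KO libraries with a ligand were thus above all other libraries of the deeper set. In KO cells Hmgcs1 rose by 0.60 ± 0.06 after LPS and by 0.39 ± 0.06 after LTA on the log2 scale (± SE, adjusted p = 4.54e-12 and 8.06e-07). In WT cells it fell by 0.28 ± 0.07 after LPS (adjusted p = 0.000532, and 0.113 without WT LPS replicate 3) and did not pass after LTA (-0.12 ± 0.07).

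Mvd, the decarboxylase that ends the mevalonate steps, showed the widest genotype gap of this group after LPS. It had 10.9, 11.6 and 11.2 CPM in KO cells after LPS, against 3.66, 3.16 and 3.15 in WT cells. With LTA the libraries had 11.1, 11.1 and 11.9 in KO cells, against 5.77, 7.25 and 6.29 in WT cells, and untreated cells had 6.77, 8.46 and 8.02 in KO, against 9.48, 10.03 and 8.3 in WT. The genotypes did not overlap after either ligand, and did when untreated. KO cells were 1.76 ± 0.16 higher after LPS and 0.82 ± 0.14 higher after LTA (log2 ± SE, adjusted p = 5.91e-14 and 1.16e-06).

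Acat2, a thiolase that feeds the path with acetoacetyl-CoA, had 9.37, 11.8 and 10.8 CPM in KO cells after LPS, against 4.63, 6.32 and 5.4 in WT cells. After LTA it had 10.9, 10.9 and 12.1 in KO cells, against 3.77, 4.98 and 5.21 in WT cells. In untreated cells it was 10.6, 13.6 and 12.8 in KO, against 9.98, 10.3 and 11.5 in WT. It fell in WT cells by 0.95 ± 0.13 after LPS and 1.17 ± 0.14 after LTA, and did not pass in KO cells (-0.21 ± 0.10 and -0.13 ± 0.10). Its counts were fractional in 63.3% of libraries, as were those of Idi1 in 76.7%, Hmgcs1 and Tm7sf2 in 66.7% each, Fdps in 60%, Acaca in 56.7% and Insig1 in 53.3%, so reads shared with other loci make these levels uncertain.

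Idi1, the isomerase of the isoprenoid units, changed less. It had 24.6, 24.7 and 25 CPM in KO cells after LPS, against 20.7, 19.5 and 18.2 in WT cells, and 23.9, 24 and 25.5 in KO cells after LTA, against 17.6, 15.8 and 14.8 in WT cells. Untreated KO cells had 24.3, 27.2 and 24.5, against 29.8, 27.6 and 28 in untreated WT cells. The WT fall was 0.55 ± 0.08 after LPS and 0.83 ± 0.08 after LTA, while the KO values of -0.03 ± 0.07 and -0.05 ± 0.07 did not pass. Among the other mevalonate enzymes, Mvk fell in WT cells by 1.23 ± 0.16 and 0.86 ± 0.14 and Pmvk by 0.60 ± 0.13 and 0.62 ± 0.13 after LPS and LTA, and neither passed in KO cells.

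The prenyl synthases at the branch point went another way under TMM. Fdps, which makes farnesyl pyrophosphate, did not pass in WT cells (-0.07 ± 0.06 after LPS and -0.03 ± 0.06 after LTA) and rose in KO cells by 0.41 ± 0.06 and 0.32 ± 0.06. Ggps1, which extends that product for protein prenylation, rose in WT cells by 0.67 ± 0.08 after LPS and 0.38 ± 0.08 after LTA. Under total-count scaling Fdps averaged 57.2 CPM in untreated WT cells, 33.5 after LPS and 37.1 after LTA. The WT values of Ggps1 were then -0.03 and -0.21. Its exons overlap those of Arid4b on the opposite strand over 5.44% of their length, and Arid4b changed by 0.39 ± 0.19 and 0.41 ± 0.19 in WT cells, neither called, and KO minus WT after LPS was -0.70 ± 0.20 for Arid4b, which is called.

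The squalene enzymes commit the path to sterols, and all 3 fell in WT cells after both ligands. Sqle, the epoxidase and a slow step of the path, had 48.3, 48.9 and 49.1 CPM in KO cells after LPS, against 14.8, 15 and 12.8 in WT cells. After LTA the level was 52.1, 47.4 and 46 in KO cells, against 16.6, 16.7 and 16.5 in WT cells. Without a ligand, KO cells had 39.8, 38.1 and 39.7 CPM, against 47.2, 46 and 48.7 in WT cells. All WT libraries with a ligand were below all KO libraries and below untreated WT. Sqle fell in WT cells by 1.74 ± 0.07 and 1.51 ± 0.07 after LPS and LTA, and rose in KO cells by 0.32 ± 0.06 and 0.31 ± 0.06 (adjusted p = 3.89e-06 and 8.25e-06). Under total-count scaling the KO rises no longer passed (adjusted p = 0.0647 and 0.0571).

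Lss, which closes the rings to lanosterol, had 10.9, 10.6 and 10.04 CPM in KO cells after LPS, against 2.8, 2.93 and 2.59 in WT cells. With LTA the libraries had 9.56, 10.3 and 11.3 in KO cells, against 3.44, 2.16 and 3.91 in WT cells, and untreated cells had 8.62, 9.25 and 9.65 in KO, against 9.84, 7.27 and 7.8 in WT. KO cells were 1.92 ± 0.17 higher after LPS and 1.71 ± 0.16 higher after LTA (log2 ± SE). Fdft1, squalene synthase, was 1.08 ± 0.09 and 1.01 ± 0.09 higher in KO cells, but 18.3% of its exon length lies opposite to Ctsb, which had 1335072 counts in all against 4442 for Fdft1. Ctsb itself differed between KO and WT by 0.05 ± 0.04 after LPS and 0.14 ± 0.04 after LTA.

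The 8 enzymes that turn lanosterol into cholesterol held the deepest falls of the sterol branch. Msmo1, which removes methyl groups, had 72.7, 71 and 75.8 CPM in KO cells after LPS, against 17.3, 19.1 and 17.2 in WT cells. After LTA it had 77.4, 71.3 and 74.7 in KO cells, against 19.9, 19.6 and 21.7 in WT cells. The untreated level was 86.8, 84.9 and 85.7 in KO cells, against 89, 84.5 and 85.9 in WT cells. Among the untreated and 6 h libraries, all WT libraries with a ligand thus lay far below the others. The WT fall was 2.27 ± 0.06 after LPS and 2.08 ± 0.06 after LTA, and the KO fall 0.23 ± 0.05 and 0.20 ± 0.05, which is called and small.

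Dhcr7, the reductase that ends the path in cholesterol, had 15.1, 13.8 and 13.3 CPM in KO cells after LPS, against 4.15, 4.8 and 3.94 in WT cells. After LTA the level was 15.4, 13 and 12.1 in KO cells, against 2.22, 2.7 and 2.71 in WT cells. In untreated cells it was 24, 23.7 and 25.7 in KO, against 21.8, 22.4 and 23 in WT. It fell in both genotypes, in KO cells by 0.80 ± 0.09 after LPS and 0.86 ± 0.09 after LTA, against falls of 2.38 ± 0.13 and 3.13 ± 0.15 in WT cells. The genotype difference in its response was 1.58 for LPS and 2.27 for LTA, both called.

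Cyp51, the lanosterol demethylase, had 23.2, 20.8 and 20.1 CPM in KO cells after LPS, against 14.6, 13.5 and 11.7 in WT cells. With LTA the libraries had 21.9, 22.7 and 22 in KO cells, against 13.8, 13.2 and 11.8 in WT cells, and untreated cells had 19.98, 16.8 and 18 in KO, against 19.4, 21.3 and 18.6 in WT. It fell in WT cells by 0.58 ± 0.09 and 0.61 ± 0.09. In KO cells it rose by 0.22 ± 0.08 after LPS (adjusted p = 0.0131, and 0.113 without KO LPS replicate 1 or 0.106 without untreated KO replicate 2) and by 0.29 ± 0.08 after LTA, and under total-count scaling neither KO rise passed (adjusted p = 0.778 and 0.292).

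The rest of this group was mixed in KO cells. Nsdhl and Sc5d fell in WT cells by 0.96 ± 0.10 and 1.10 ± 0.09 after LPS, and did not pass in KO cells after LPS (-0.17 ± 0.08 and 0.11 ± 0.07). After LTA Nsdhl was lower in KO cells by 0.19 ± 0.08 (adjusted p = 0.0407, 0.104 by DESeq2, 0.0896 without the filter on low counts, and 0.0595 to 0.426 without KO LTA replicate 3 or any 1 untreated KO library). Hsd17b7, a reductase of the demethylation complex, rose in KO cells by 0.68 ± 0.13 after LPS and 0.68 ± 0.13 after LTA, and in WT cells did not pass after LPS (-0.29 ± 0.15) and fell by 0.46 ± 0.15 after LTA (adjusted p = 0.00645, and 0.0551 without WT LTA replicate 1). Ebp, an isomerase, fell in both genotypes, by 0.54 ± 0.06 in KO cells and 0.67 ± 0.07 in WT cells after LPS, and the genotype difference in that response was 0.13 ± 0.10, which did not pass. Tm7sf2, a reductase, passed in none of the 6 h comparisons under TMM, and 12.1% of its exon length is shared with Vps51 on the same strand.

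**Figure D3:**
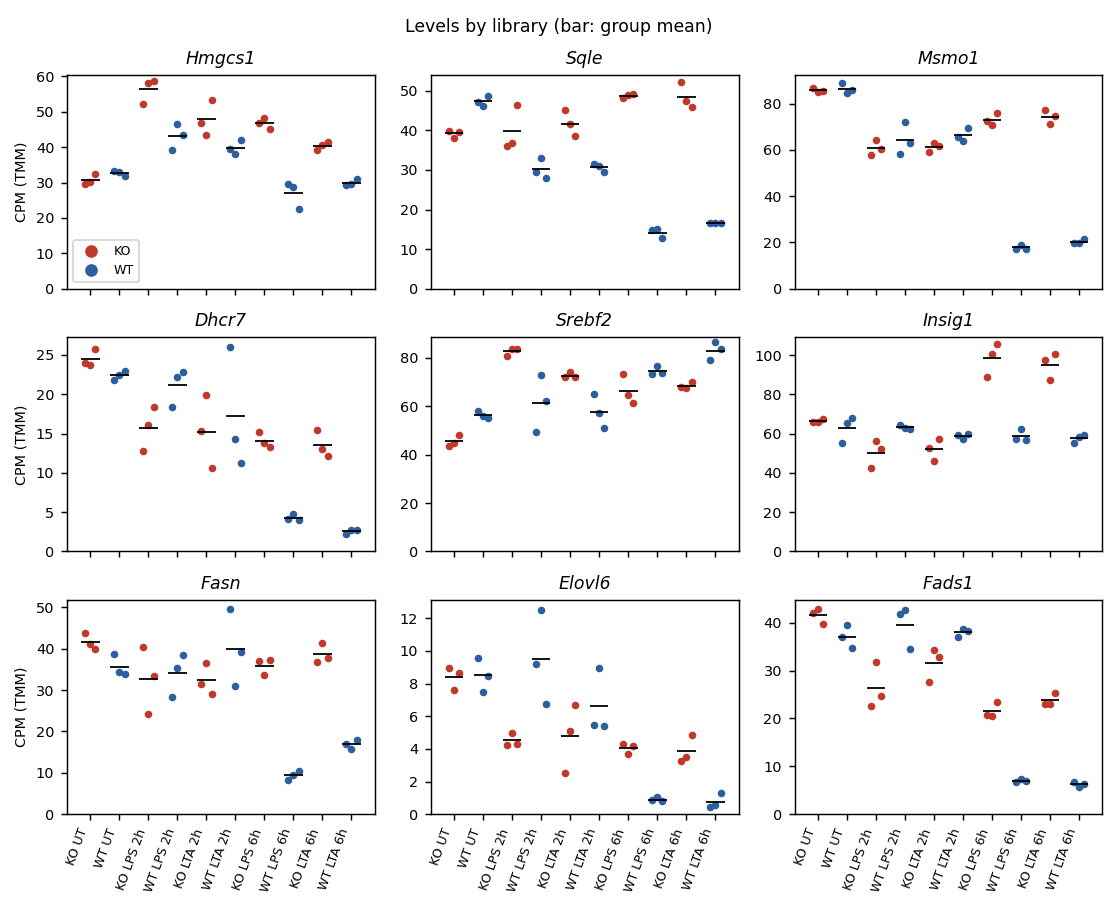
Levels of 9 genes in every library (points, TMM-scaled CPM, axes from 0) with the group mean (bar), KO in red and WT in blue, from untreated (UT) through 2 h to 6 h. In Sqle, Msmo1, Dhcr7, Fasn, Elovl6 and Fads1 the WT libraries at 6 h lie below every KO library at 6 h, whereas the Srebf2 libraries at 6 h lie above the untreated ones of their genotype.

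Stard4 followed the enzymes. It had 19.8, 18.4 and 16.3 CPM in KO cells after LPS, against 5, 4.33 and 3.49 in WT cells, and 18.9, 17.5 and 18 in KO cells after LTA, against 7.88, 9.52 and 6.94 in WT cells. Untreated KO cells had 17, 20.7 and 20.8, against 18.2, 19.6 and 20.8 in untreated WT cells. The WT falls were 2.19 ± 0.14 after LPS and 1.26 ± 0.12 after LTA, and the KO values of -0.11 ± 0.09 and -0.11 ± 0.09 did not pass.

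Under TMM the regulators showed other patterns than the enzymes. Srebf2 had 73, 64.7 and 61.4 CPM in KO cells after LPS, against 73, 76.3 and 73.5 in WT cells. After LTA it had 67.8, 67.2 and 69.7 in KO cells, against 78.8, 86.2 and 83.4 in WT cells. Without a ligand, KO cells had 43.6, 44.8 and 48.2, against 58.1, 55.9 and 54.9 in WT cells. It was thus higher with a ligand in both genotypes under TMM, by 0.54 ± 0.06 and 0.58 ± 0.06 in KO cells and 0.40 ± 0.06 and 0.56 ± 0.06 in WT cells after LPS and LTA. Under total-count scaling the WT values were -0.30 and -0.04, while the KO values were 0.35 and 0.40.

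Srebf1 had 61.3, 68.7 and 61.2 CPM in KO cells after LPS, against 52.3, 56.5 and 56.1 in WT cells, and 68.9, 69 and 64.6 in KO cells after LTA, against 56.7, 63.5 and 61.5 in WT cells. The untreated level was 64.5, 69.9 and 65.8 in KO cells, against 64.9, 65.5 and 65 in WT cells. Its single called 6 h response under TMM was a WT fall of 0.24 ± 0.07 after LPS. With total-count scaling Srebf1 averaged 73.8 CPM in untreated WT cells, 38.4 after LPS and 45.3 after LTA. The KO means were then 76.6, 64.0 and 68.3. Scap, the escort, rose in WT cells by 0.43 ± 0.07 and 0.42 ± 0.07 under TMM, and was -0.27 and -0.18 under total-count scaling.

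Insig1, which is itself a known target gene of SREBP, had 88.6, 100.4 and 106 CPM in KO cells after LPS, against 57.2, 62.3 and 56.5 in WT cells. After LTA the level was 97.7, 87.1 and 101 in KO cells, against 55.3, 58.4 and 59.4 in WT cells. In untreated cells it was 65.8, 66.1 and 67.4 in KO, against 55, 65.2 and 68.1 in WT. The KO libraries with a ligand stood above all other libraries of the deeper set. The KO rise was 0.57 ± 0.06 after LPS and 0.52 ± 0.06 after LTA (adjusted p = 6.95e-12 and 1.6e-10). The WT values of -0.09 ± 0.07 and -0.12 ± 0.07 did not pass under TMM. With total-count scaling Insig1 averaged 71.1 CPM in untreated WT cells, 40.9 after LPS and 43.2 after LTA. The KO means were then 76.3, 98.6 and 96.3. Insig2, the second anchor, had 22.3, 22 and 23 CPM in KO cells after LPS, against 21.9, 23.3 and 25.1 in WT cells, and 24.3, 23.3 and 23.1 in KO cells after LTA, against 23, 22.5 and 24 in WT cells. Untreated KO cells had 24, 23 and 23.3, against 25.7, 24.3 and 23.8 in untreated WT cells. The Insig2 groups overlapped or nearly so, and no 6 h comparison of Insig2 passed under TMM. With total-count scaling Insig2 averaged 27.8 CPM in untreated WT cells, 16.4 after LPS and 17.3 after LTA. The KO means were then 26.9, 22.5 and 23.9.

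In fatty acid synthesis, Acly supplies cytosolic acetyl-CoA, Acaca makes malonyl-CoA and Fasn joins the units into palmitate. Fasn had 36.9, 33.6 and 37.2 CPM in KO cells after LPS, against 8.29, 9.6 and 10.5 in WT cells. With LTA the libraries had 36.8, 41.4 and 37.8 in KO cells, against 17, 15.7 and 17.9 in WT cells. Untreated KO cells had 43.7, 41.2 and 39.8, against 38.6, 34.3 and 33.8 in untreated WT cells. WT cells were lowest after LPS, then after LTA, with no overlap between those groups. The WT fall was 1.91 ± 0.11 after LPS and 1.08 ± 0.09 after LTA. The KO fall after LPS was 0.21 ± 0.07 (adjusted p = 0.013, and 0.0835 without KO LPS replicate 2 or 0.0674 without untreated KO replicate 1), and after LTA the KO value of -0.10 ± 0.07 did not pass.

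Acaca had 7.57, 8.27 and 6.74 CPM in KO cells after LPS, against 2.8, 3.75 and 3.38 in WT cells, and 8.42, 8.92 and 8.37 in KO cells after LTA, against 3.99, 4.87 and 4.34 in WT cells. Without a ligand, KO cells had 11.1, 9.65 and 8.51, against 6.06, 7.35 and 9.05 in WT cells. It fell in WT cells by 1.16 ± 0.17 and 0.75 ± 0.16, and in KO cells after LPS by 0.37 ± 0.12 (adjusted p = 0.00809, and 0.0674 without KO LPS replicate 3 or 0.0888 without untreated KO replicate 1). Acly stood apart from both. It had 50.7, 47.8 and 48.8 CPM in KO cells after LPS, against 47.8, 48.5 and 46.2 in WT cells, and 54.3, 50.7 and 56.1 in KO cells after LTA, against 45.5, 48.1 and 47.2 in WT cells. With 51.5, 48.2 and 54 in untreated KO cells and 47.8, 51.7 and 48.3 in untreated WT cells, its responses of -0.06 ± 0.05 in KO and -0.05 ± 0.06 in WT cells after LPS did not pass. Under total-count scaling the WT value was -0.75.

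The desaturases and elongases shape the fatty acids that Fasn makes. Elovl6, which lengthens palmitate, had 4.28, 3.66 and 4.2 CPM in KO cells after LPS, against 0.853, 1.05 and 0.788 in WT cells. After LTA it had 3.25, 3.48 and 4.86 in KO cells, against 0.444, 0.541 and 1.3 in WT cells. The untreated level was 8.94, 7.59 and 8.65 in KO cells, against 9.55, 7.5 and 8.47 in WT cells. Its fall was the largest of all 33 genes in both genotypes, by 1.05 ± 0.15 and 1.12 ± 0.15 in KO cells and 3.22 ± 0.24 and 3.45 ± 0.24 in WT cells after LPS and LTA. These WT libraries rest on few counts, and 4 is the lowest count of Elovl6 in a library.

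Fads1, a desaturase of polyunsaturated fatty acids, had 20.8, 20.6 and 23.5 CPM in KO cells after LPS, against 6.83, 7.26 and 6.98 in WT cells. After LTA the level was 23, 23 and 25.3 in KO cells, against 6.77, 5.62 and 6.29 in WT cells. In untreated cells it was 42.1, 42.9 and 39.7 in KO, against 37.1, 39.5 and 34.7 in WT. Among the untreated and 6 h libraries the levels form steps, with untreated cells of both genotypes above KO cells with a ligand, and those above WT cells with a ligand. It fell in KO cells by 0.94 ± 0.07 and 0.81 ± 0.07, and in WT cells by 2.40 ± 0.10 and 2.57 ± 0.10. Fads2, its partner enzyme, fell in KO cells by 0.44 ± 0.09 and 0.46 ± 0.09, and in WT cells by 1.06 ± 0.12 and 0.88 ± 0.12.

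The stearoyl-CoA desaturases Scd1 and Scd2 put the first double bond in. Scd2 had 24.5, 25.1 and 19.8 CPM in KO cells after LPS, against 8.53, 8.43 and 9.23 in WT cells, and 21, 20.4 and 22.5 in KO cells after LTA, against 10.2, 9.73 and 11.7 in WT cells. Untreated KO cells had 25.9, 28.2 and 32.1, against 17.8, 21.4 and 20.4 in untreated WT cells. Scd1 was much scarcer, at 1 to 42 counts in a library. It had 1.81, 1.75 and 1.5 CPM in KO cells after LPS, against 1.95, 1.76 and 1.35 in WT cells, and 2.63, 2.23 and 2.07 in KO cells after LTA, against 1.44, 2.06 and 1.63 in WT cells. Without a ligand, KO cells had 2.18, 3.32 and 2.13, against 1.35, 1.15 and 1.25 in WT cells. Under LPS the KO response of Scd1 lay below the WT response by 1.00 ± 0.36, the one fatty acid gene with that direction (adjusted p = 0.0179, and 0.105 without untreated KO replicate 2 or 0.0535 without WT LPS replicate 1). Scd1 and Scd2 are similar in sequence, and reads split between them would make both levels uncertain. Counts were fractional in 6.7% of libraries for Scd1 and in 30.0% for Scd2.

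Before any ligand, most of the genes that differed between genotypes were fatty acid genes. Untreated KO cells had 6 of 33 genes higher than untreated WT cells and 2 lower, against 5.98% and 7.47% of all tested genes. In the fatty acid branch 5 of 8 were higher and 0 lower, with a median of 0.30, and in the sterol branch 1 of 19 was higher and 1 lower, with a median of -0.02. Scd1 was 1.01 ± 0.23 higher, Scd2 0.54 ± 0.08, Fads2 0.47 ± 0.09, Acaca 0.39 ± 0.12 and Fasn 0.22 ± 0.07 (log2 ± SE). Ebp was 0.28 ± 0.06 higher in the sterol branch, while Sqle fell by 0.27 ± 0.06 and Srebf2 by 0.31 ± 0.06 relative to WT. Without untreated KO replicate 2 the higher count was 3, with Scd1 (adjusted p = 0.0545), Acaca (0.053) and Fasn (0.0719) lost. Acaca was also lost without untreated KO replicate 1 (0.185), WT replicate 1 (0.242) or WT replicate 2 (0.0595), and Fasn without KO replicate 1 (0.148), WT replicate 2 (0.126) or WT replicate 3 (0.138). Total-count scaling gave 7 higher and 2 lower.

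**Figure D4:**
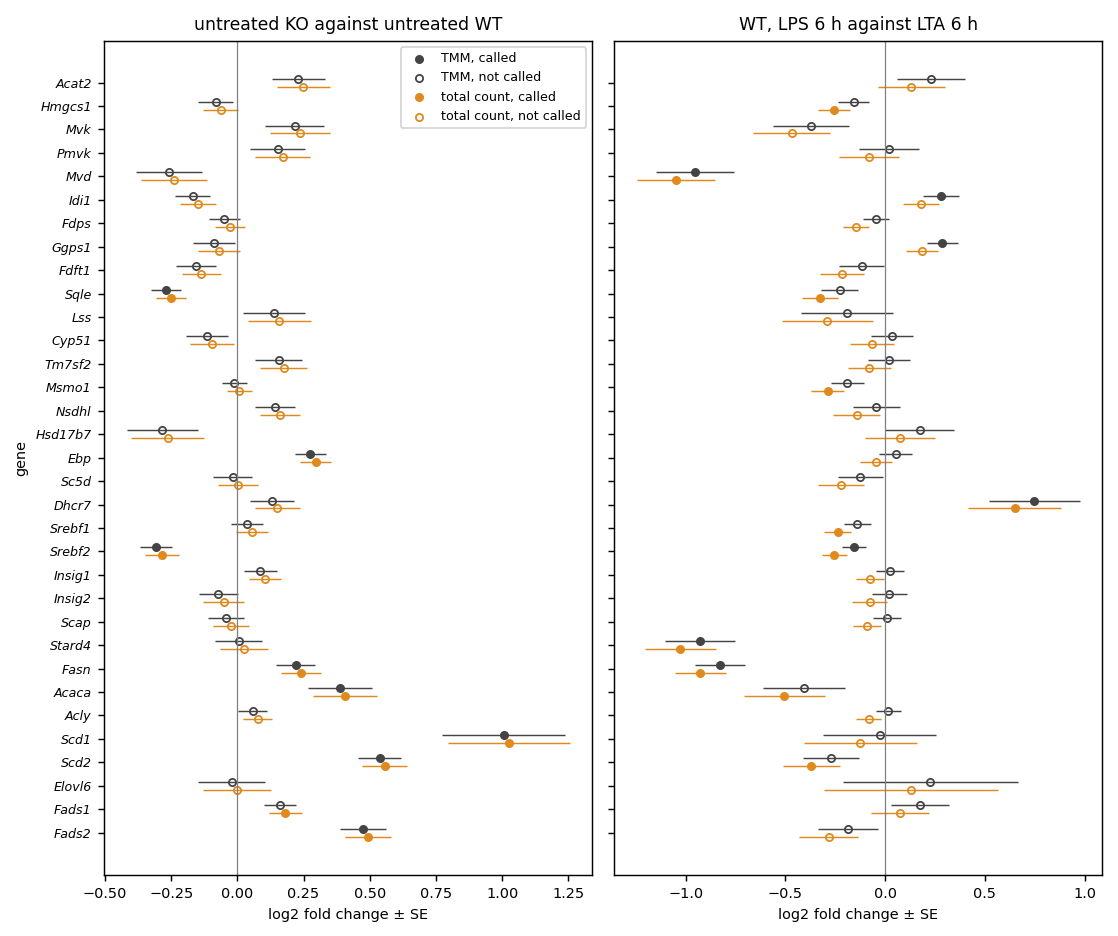
Log2 fold change with standard error of each gene in untreated KO against untreated WT cells (left) and in WT cells after LPS against LTA for 6 h (right), under TMM (grey) and total-count scaling (orange), filled where the adjusted p is under 0.05. On the left the fatty acid genes Scd1, Scd2 and Fads2 lie furthest right, at 1.01, 0.54 and 0.47 under TMM, and on the right Mvd, Stard4 and Fasn lie furthest left, at -0.95, -0.93 and -0.83.

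The balance of the branches can be read from their geometric mean levels in each library. After LPS for 6 h the sterol branch averaged 21.3 ± 0.300 CPM in KO cells and 10.8 ± 0.346 in WT cells (SD, n = 3 each), and the fatty acid branch 12.1 ± 0.400 in KO cells and 5.32 ± 0.223 in WT cells. After LTA the sterol branch averaged 20.8 ± 0.306 in KO cells and 11.1 ± 0.115 in WT cells, and the fatty acid branch 13 ± 0.289 in KO cells and 5.89 ± 0.559 in WT cells. Untreated KO and WT cells both had 20.2 in the sterol branch, with SDs of 0.551 and 0.252, while the fatty acid branch had 17.1 ± 0.513 in KO cells and 13.3 ± 0.153 in WT cells. In KO cells the sterol branch at 6 h was close to its untreated mean and the fatty acid branch was below it, whereas in WT cells both were below.

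As a log2 ratio of sterol to fatty acid branch, KO cells had 0.82 ± 0.06 after LPS, 0.68 ± 0.03 after LTA and 0.24 ± 0.08 untreated, and WT cells had 1.03 ± 0.02, 0.91 ± 0.12 and 0.60 ± 0.03 (SD, n = 3 each). A ligand moved this ratio toward the sterol branch in both genotypes, by 0.58 and 0.44 in KO cells and 0.42 and 0.31 in WT cells. The ratio does not depend on the scaling, because both branches are read in the same library. It does depend on the members, and without Scd1 and Scd2 the shifts were 0.59 and 0.48 in KO cells and 0.74 and 0.63 in WT cells, so which genotype shifted more turns with the choice of members. No test is given, since the branches were set with earlier results known.

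**Figure D5:**
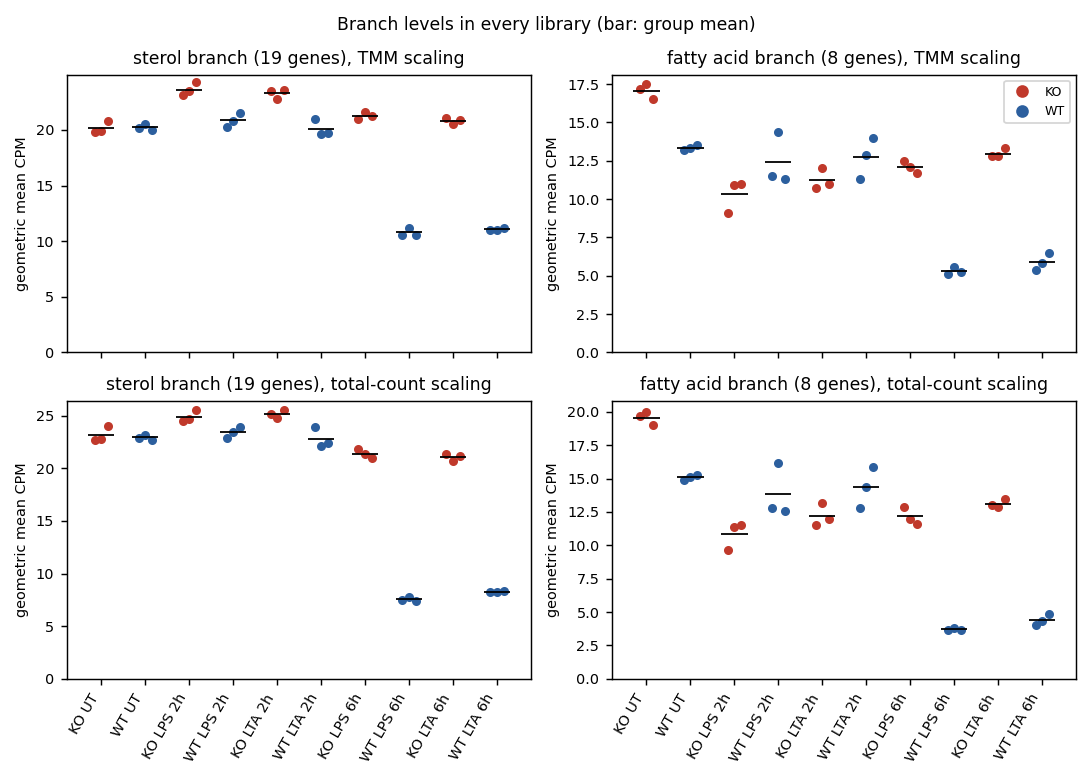
Geometric mean CPM of the 19 sterol genes (left) and the 8 fatty acid genes (right) in each of 30 libraries (points) with group means (bars), under TMM (top) and total-count scaling (bottom), KO in red and WT in blue. In the upper left panel KO libraries lie between 19.8 and 24.3 at all times while WT libraries at 6 h lie between 10.6 and 11.2, and in the upper right panel every group at 6 h lies below its untreated level.

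LPS and LTA differed at a few genes in WT cells at 6 h, at doses that also differ. In WT cells at 6 h, 3 genes were higher after LPS than after LTA and 4 lower, against 17.9% and 14.0% of all tested genes. Dhcr7 was 0.75 ± 0.23 higher, Ggps1 0.29 ± 0.08 and Idi1 0.28 ± 0.09, while Mvd fell by 0.95 ± 0.20, Stard4 by 0.93 ± 0.17, Fasn by 0.83 ± 0.13 and Srebf2 by 0.16 ± 0.06 relative to LTA. Total-count scaling gave 1 higher (Dhcr7) and 10 lower. Idi1 lost its call without WT LPS replicate 1 (adjusted p = 0.0939), WT LTA replicate 2 (0.0532) or WT LTA replicate 3 (0.121), and Srebf2 without WT LPS replicate 1 (0.0753) or 3 (0.0592), or WT LTA replicate 2 (0.126) or 3 (0.0746). In KO cells at 6 h 0 of 33 were called, against 1.34% higher and 1.32% lower over all genes, with 3 at an unadjusted p under 0.05. Hmgcs1 came closest, at 0.21 ± 0.06 (adjusted p = 0.0524), and it was the 1 gene called by DESeq2 and with RLE size factors. At 2 h 0 were called in KO cells, against 1.14% higher and 0.258% lower, and 0 in WT cells, against 1.10% higher and 0.0992% lower, with 1 gene in each at an unadjusted p under 0.05 and 0 called by DESeq2.

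In WT cells 4 genes were lower than untreated after LPS for 2 h and 5 after LTA, against 25.5% and 23.9% of all tested genes. At 6 h 23 and 22 were lower, against 36.1% and 35.9%. Time and library set cannot be told apart here. Within the 2 h set, KO cells after LPS had 5 genes higher than WT cells and 2 lower, against 9.11% and 7.26% of all tested genes, and after LTA 3 higher and 1 lower, against 7.82% and 5.21%. Fdps was 0.43 ± 0.10 higher in KO cells after LPS and 0.49 ± 0.11 after LTA, Sqle 0.40 ± 0.13 and 0.46 ± 0.13, and Srebf2 0.42 ± 0.10 and 0.34 ± 0.11. After LPS Hmgcs1 was 0.40 ± 0.11 and Scap 0.38 ± 0.14 higher, while Elovl6 fell by 0.98 ± 0.33 and Fads1 by 0.50 ± 0.14 relative to WT, and after LTA Scd2 fell by 0.76 ± 0.25. Under total-count scaling 2 were higher and 3 lower after LPS, with Sqle (adjusted p = 0.12), Scap (0.148) and Hmgcs1 (0.0566) no longer called, and 2 were higher and 1 lower after LTA, with Srebf2 (0.118) no longer called. By DESeq2 the adjusted p after LPS was 0.0504 for Sqle and 0.0694 for Scap, and after LTA it was 0.0507 for Srebf2. With the 2 h libraries alone it was 0.0568 for Scap after LPS and 0.0606 for Srebf2 after LTA.

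Leaving out single 2 h libraries ended several of these calls. For Elovl6 after LPS the adjusted p was 0.0756, 0.0809 and 0.0925 without KO replicates 1, 2 and 3, and 0.0673 and 0.221 without WT replicates 1 and 2. For Sqle it was 0.265 without KO LPS replicate 3, and 0.071 and 0.195 without WT LPS replicates 1 and 3, and for Hmgcs1 0.0666 without KO replicate 2 and 0.0532 without WT replicate 1. For Scap it was 0.287 and 0.129 without KO LPS replicates 2 and 3, and 0.101, 0.102 and 0.0977 without WT replicates 1, 2 and 3. After LTA, Scd2 had 0.217 and 0.127 without KO replicates 1 and 3, and 0.0629 and 0.17 without WT replicates 1 and 3. Srebf2 had 0.0727 without KO LTA replicate 2, and 0.0599 and 0.215 without WT LTA replicates 2 and 3, and Sqle had 0.0989 without KO LTA replicate 1 and 0.076 without WT LTA replicate 3. Fdps after both ligands and Srebf2 and Fads1 after LPS were called without any 1 library.

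The libraries of 2 h behind these calls, and those of the other genes followed here, were as follows in CPM. Fdps had 73.5, 73.6 and 74.4 in KO cells after LPS, against 55.3, 46 and 60.7 in WT cells, and 72.2, 69.3 and 63.5 in KO cells after LTA, against 49.7, 44.1 and 52 in WT cells. Hmgcs1 had 52.3, 58.2 and 58.7 in KO cells after LPS, against 39.3, 46.6 and 43.4 in WT cells, and 46.7, 43.4 and 53.5 in KO cells after LTA, against 39.4, 38.1 and 42.2 in WT cells. In both genes KO and WT libraries did not overlap. Sqle had 36.1, 36.8 and 46.3 in KO cells after LPS, against 29.5, 33 and 28.1 in WT cells, and 45, 41.6 and 38.4 in KO cells after LTA, against 31.5, 31 and 29.4 in WT cells. Srebf2 had 80.6, 83.6 and 83.5 in KO cells after LPS, against 49.1, 72.8 and 62.1 in WT cells, and 71.8, 73.9 and 71.9 in KO cells after LTA, against 64.8, 57.2 and 51 in WT cells. The KO libraries were above the WT libraries in these genes too.

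The remaining sterol genes mostly overlapped between genotypes at 2 h. Acat2 had 14.1, 14.6 and 11.9 in KO cells after LPS, against 9.82, 12.5 and 12.7 in WT cells, and 19.1, 15.7 and 13.4 in KO cells after LTA, against 12.7, 10.7 and 13.7 in WT cells. Mvd had 11.3, 13.6 and 12.4 in KO cells after LPS, against 14.7, 3.98 and 12 in WT cells, and 11.9, 6.93 and 15.6 in KO cells after LTA, against 10.3, 8.94 and 9.32 in WT cells. One WT library of Mvd after LPS lay well below its group, on 7 counts. Idi1 had 30.4, 31.4 and 32.3 in KO cells after LPS, against 25.8, 30.7 and 22.8 in WT cells, and 31.4, 26.8 and 30.1 in KO cells after LTA, against 24.8, 29.8 and 24 in WT cells. Lss had 12, 9.64 and 13.5 in KO cells after LPS, against 10.4, 12.5 and 11.6 in WT cells, and 12.7, 11.6 and 10.6 in KO cells after LTA, against 5.45, 12.5 and 12.3 in WT cells. None of these 4 genes was called between genotypes at 2 h.

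Cyp51 had 31.8, 27.5 and 30.7 CPM in KO cells after LPS for 2 h, against 31.3, 31.3 and 24.7 in WT cells, and 28.5, 31.4 and 34.5 in KO cells after LTA, against 28.5, 25.6 and 25.5 in WT cells. Msmo1 had 58, 64.3 and 60.3 in KO cells after LPS, against 58.3, 72.2 and 62.9 in WT cells, and 59, 62.8 and 61.8 in KO cells after LTA, against 65.4, 63.8 and 69.6 in WT cells. Neither was called between genotypes, in contrast to 6 h. Dhcr7 had 12.7, 16.1 and 18.3 in KO cells after LPS, against 18.4, 22.2 and 22.8 in WT cells, and 15.3, 19.9 and 10.6 in KO cells after LTA, against 26, 14.3 and 11.3 in WT cells. Stard4 had 22.6, 12.5 and 15.1 in KO cells after LPS, against 17.2, 21.6 and 19.5 in WT cells, and 19.1, 14.3 and 16.2 in KO cells after LTA, against 14.5, 21.5 and 16.7 in WT cells. In WT cells after LPS for 2 h Dhcr7 (-0.06 ± 0.15) and Stard4 (0.00 ± 0.15) did not pass against untreated cells.

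Of the regulators, Srebf1 had 52.3, 49.99 and 45.3 CPM in KO cells after LPS for 2 h, against 42.4, 39.2 and 52 in WT cells, and 38.6, 53.6 and 59.6 in KO cells after LTA, against 58.1, 42.3 and 48.5 in WT cells. Insig1 had 42.4, 56.4 and 52.3 in KO cells after LPS, against 64.5, 63.1 and 62.1 in WT cells, and 52.7, 46.2 and 57.4 in KO cells after LTA, against 59.3, 57.2 and 59.8 in WT cells. After LPS the KO libraries of Insig1 lay below the WT libraries, the reverse of their order at 6 h in the other library set. The difference was not called under TMM (-0.29 ± 0.12), and after LTA the groups overlapped. Insig2 had 19.1, 18.6 and 21 in KO cells after LPS, against 28.2, 23.9 and 20.2 in WT cells, and 17.8, 26.8 and 24.5 in KO cells after LTA, against 19.98, 14.9 and 28.9 in WT cells.

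In the fatty acid branch at 2 h, Elovl6 had 4.24, 5 and 4.31 CPM in KO cells after LPS, against 9.21, 12.5 and 6.74 in WT cells, and 2.55, 5.08 and 6.68 in KO cells after LTA, against 5.45, 8.94 and 5.39 in WT cells. Fads1 had 22.6, 31.8 and 24.8 in KO cells after LPS, against 41.8, 42.6 and 34.4 in WT cells, and 27.6, 34.2 and 32.9 in KO cells after LTA, against 36.9, 38.7 and 38.2 in WT cells. Scd2 had 9.9, 8.21 and 9.7 in KO cells after LPS, against 13.5, 14.2 and 13.5 in WT cells, and 7.64, 14.8 and 7.8 in KO cells after LTA, against 17, 14.9 and 19.1 in WT cells. After LPS at 2 h these 3 genes had KO libraries below WT libraries, and Elovl6 and Fads1 were called but Scd2 was not. At 6 h, in the other library set, the KO libraries were above. The share of all genes with such an order is not given here. Fasn had 40.3, 24.3 and 33.4 in KO cells after LPS, against 28.2, 35.2 and 38.6 in WT cells, and 31.4, 36.5 and 29 in KO cells after LTA, against 49.7, 31 and 39.2 in WT cells. Acaca had 2.83, 5 and 5.39 in KO cells after LPS, against 4.91, 6.25 and 6.74 in WT cells, and 8.49, 6.47 and 5.57 in KO cells after LTA, against 3.63, 8.34 and 7.84 in WT cells. Fasn and Acaca overlapped between genotypes after each ligand. Acly had 61.5, 57.1 and 59.3 in KO cells after LPS, against 53.4, 46.6 and 55.8 in WT cells, and 53.9, 55 and 58.5 in KO cells after LTA, against 53.3, 62.6 and 56.9 in WT cells. Scd1 had 0.707, 1.79 and 1.62 in KO cells after LPS, against 0.614, 1.71 and 0.374 in WT cells, and 1.7, 0.924 and 1.11 in KO cells after LTA, against 0.606, 0.596 and 1.96 in WT cells. These rest on 1 to 5 counts a library, where a count of 0 allows 1.13 to 2.25 CPM of the library total.

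Against untreated cells, a comparison that also crosses the library sets, LPS for 2 h gave 10 higher and 10 lower in KO cells, against 26.8% and 30.4% of all tested genes, and 6 higher and 4 lower in WT cells, against 19.5% and 25.5%. LTA gave 8 higher and 8 lower in KO cells, against 26.3% and 29.7%, and 4 higher and 5 lower in WT cells, against 19% and 23.9%. In KO cells after LPS the sterol branch had 7 higher and 3 lower and the fatty acid branch 1 higher and 5 lower. Hsd17b7 was 1.24 ± 0.20 higher, Mvk 0.99 ± 0.16, Hmgcs1 0.88 ± 0.09 and Srebf2 0.86 ± 0.08, and Scd2 fell by 1.67 ± 0.18. In WT cells after LPS Mvk was 0.86 ± 0.18 and Hmgcs1 0.40 ± 0.10 higher, and Sqle fell by 0.66 ± 0.10. The hepatocyte and fibroblast markers above differ between the same library sets.

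Other genes of the pathway were read from a list of 40, of which 38 were tested, and their counts stand beside the shares of all tested genes given above for each comparison. In WT cells after LPS for 6 h 14 were higher and 14 lower, against 36.6% and 36.1% of all tested genes, with a median of -0.02, and after LTA 18 and 14, against 35.4% and 35.9%, with a median of 0.13. In KO cells 15 were higher and 9 lower after LPS, against 25.7% and 26.6%, and 16 and 10 after LTA, against 25.7% and 26.5%. The WT falls with the smallest p were those of Mid1ip1, an activator of acetyl-CoA carboxylase, by 1.77 ± 0.06 after LPS, Soat1, which esterifies cholesterol, by 1.17 ± 0.04, and Lipa, the lysosomal lipase, by 1.25 ± 0.05. The same 3 were the leading falls after LTA, by 1.77 ± 0.06, 1.25 ± 0.04 and 1.39 ± 0.05. Among the WT rises were ubiquitin ligases, with Rnf145 at 1.66 ± 0.05, Rnf139 at 1.46 ± 0.07 and Syvn1 at 1.18 ± 0.06 after LPS, and Rnf145 at 1.80 ± 0.05 after LTA, followed by Hsd17b12 at 0.81 ± 0.05 and Nus1 at 0.73 ± 0.05.

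In KO cells the leading rises on that list were Rnf145 at 0.75 ± 0.06, Hsd17b12 at 0.61 ± 0.05 and Elovl1 at 0.58 ± 0.05 after LPS, and 0.86 ± 0.06, 0.67 ± 0.05 and 0.58 ± 0.05 after LTA. The leading falls were Elovl5 by 0.71 ± 0.07, Lipa by 0.44 ± 0.04 and Mid1ip1 by 0.46 ± 0.05 after LPS, and 0.67 ± 0.07, 0.49 ± 0.04 and 0.31 ± 0.05 after LTA. Between KO and WT cells 17 of 38 were higher and 12 lower after LPS, against 32.7% and 30.6% of all tested genes. After LTA 15 were higher and 13 lower, against 30.5% and 28.0%. Mid1ip1, Soat1 and Lipa led the genes higher in KO cells after LPS, at 1.36 ± 0.06, 0.88 ± 0.04 and 0.88 ± 0.05, and after LTA, at 1.5 ± 0.06, 1.08 ± 0.04 and 0.98 ± 0.05. Rnf139, Npc2 and Syvn1 led those lower after LPS, at -1.68 ± 0.07, -0.79 ± 0.04 and -1.10 ± 0.06, and Rnf145, Rnf139 and Nus1 after LTA, at -0.92 ± 0.05, -0.98 ± 0.08 and -0.50 ± 0.05. Untreated, 1 was higher (Tecr, 0.26 ± 0.04) and 1 lower (Hsd17b12, -0.19 ± 0.05), against 5.98% and 7.47%.

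Between ligands in WT cells at 6 h, 7 of the 38 were higher after LPS and 8 lower, against 17.9% and 14.0%. Npc2, Rnf139 and Pdss1 led those higher, at 0.54 ± 0.04, 0.79 ± 0.07 and 0.93 ± 0.13, and Elovl1, Rabggtb and Me1 those lower, at -0.48 ± 0.05, -0.44 ± 0.06 and -0.67 ± 0.11. The genotype difference in the response was above 0 in 15 and below 0 in 11 for LPS, against 27.0% and 23.5%. For LTA it was above 0 in 10 and below 0 in 9, against 24.8% and 20.1%. Mid1ip1, Soat1 and Lipa led it upward for both ligands, at 1.31 ± 0.08, 0.86 ± 0.06 and 0.81 ± 0.06 for LPS and 1.46 ± 0.07, 1.06 ± 0.06 and 0.91 ± 0.06 for LTA. Rnf139, Npc2 and Rnf145 led it downward for LPS, at -1.48 ± 0.11, -0.73 ± 0.05 and -0.91 ± 0.08, and Rnf145, Rnf139 and Hacd2 for LTA, at -0.95 ± 0.08, -0.79 ± 0.11 and -0.59 ± 0.09.

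A list of 6 genes of oxysterol and LXR signalling was read in the same libraries. After each ligand for 6 h, 5 of the 6 were higher and 1 lower in KO cells and in WT cells. Over all tested genes in WT cells, 36.6% were higher and 36.1% lower after LPS, and 35.4% and 35.9% after LTA. In KO cells these shares were 25.7% and 26.6% after LPS, and 25.7% and 26.5% after LTA. Ch25h, which makes an oxysterol that holds SREBP back through INSIG, averaged 69.2 ± 5.69 CPM in KO cells and 578 ± 20.5 in WT cells after LPS for 6 h, and 66.2 ± 2.69 and 189 ± 6.24 after LTA (SD, n = 3 each). Untreated KO cells had 16.3 ± 0.609 and untreated WT cells 29.6 ± 1.5. At 2 h the genotypes were closer, at 188 ± 2.06 in KO cells and 162 ± 8.43 in WT cells after LPS and 186 ± 14.7 and 147 ± 5.19 after LTA. Ch25h was thus highest in WT cells after LPS for 6 h. The sterol branch averaged 10.8 ± 0.346 CPM in that group and 11.1 ± 0.115 in WT cells after LTA, with overlapping libraries. At 2 h, in the other library set, Ch25h was also well above untreated levels. The sterol branch then averaged 20.9 CPM in WT cells after LPS. Abca1, a cholesterol exporter and LXR target, rose by 0.50 ± 0.06 in KO cells and 2.53 ± 0.06 in WT cells after LPS, and by 0.41 ± 0.06 and 2.44 ± 0.06 after LTA. The gene that fell in each comparison was Abcg1, another exporter and LXR target, by 0.86 ± 0.05 in KO cells and 0.41 ± 0.05 in WT cells after LPS, and by 0.76 ± 0.05 and 0.89 ± 0.05 after LTA. Nr1h3, which encodes LXR alpha, rose by 1.67 ± 0.08 in KO cells and 0.51 ± 0.08 in WT cells after LPS, and by 1.53 ± 0.08 and 0.31 ± 0.08 after LTA, and its WT values were -0.19 and -0.29 under total-count scaling. Nr1h2, which encodes LXR beta, rose by 0.15 ± 0.06 in KO cells and 0.85 ± 0.06 in WT cells after LPS, and by 0.17 ± 0.06 and 0.87 ± 0.06 after LTA, and its KO values were -0.04 and -0.01 under total-count scaling. Mylip, a ligase that degrades the LDL receptor, rose by 0.53 ± 0.08 in KO cells and 1.34 ± 0.07 in WT cells after LPS, and by 0.76 ± 0.07 and 1.42 ± 0.07 after LTA. Whether any of these bears on the sterol genes was not tested.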

How the data were processed

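The deposited table holds 30 libraries of gene-level expected counts, which the authors deposited without normalization, and 25.2% of values above 0 are not whole. The submitters' processing notes name STAR 2.7.11, featureCounts of Subread 2.1.1, fastp 0.24.0 and SAMtools 1.22.1, with the builds GRCm38 and mm10. The sources used here do not give the strand setting. IDs were named from GENCODE M21 (26314 of 32361).

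Counts were rounded and fitted over all 30 libraries with edgeR 4.0.16 (R 4.3.3) by quasi-likelihood, with filterByExpr (minimum count 10, total 15), TMM scaling and Benjamini-Hochberg adjustment over 15119 genes. A gene was called at an adjusted p under 0.05. Standard errors are the fold change over the root of F. Alternatives were total-count scaling, RLE, DESeq2 1.42.0, no filter, a replicate block, single library sets and leaving out each library. Scripts were tested on simulated data. Tables were made with Python 3.11.15 and pandas 2.3.3.

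Per the labels, 3 WT and 3 KO animals gave the 3 replicates of each group. No replicate pair agreed within sampling noise (chi-square per gene 1.11 to 9.56 over 30 pairs).

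Values in every library are given for 16 chosen genes and for the largest called change of each role group in a 6 h comparison. Other pathway genes are named as up to 3 with the smallest p in each direction. The members and lists were chosen with earlier results of these data known.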

Additional observations from a re-analysis of the deposited data

Results flagged for a closer look

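Each of these genes responded differently to a ligand in KO and WT macrophages, by the test of the difference itself. For LPS at 6 h, the KO response minus the WT response (log2, TMM, interaction term of edgeR's quasi-likelihood fit, adjusted p under 0.05, 3 libraries a group) differed from 0 as follows. In the mevalonate steps it was Acat2 0.73, Hmgcs1 0.88, Mvk 1.29, Pmvk 0.74, Mvd 2.02, Idi1 0.52, Fdps 0.48 and Ggps1 -0.45. In the squalene steps it was Fdft1 1.23, Sqle 2.05 and Lss 1.78. Between lanosterol and cholesterol it was Cyp51 0.80, Msmo1 2.04, Nsdhl 0.79, Hsd17b7 0.97, Sc5d 1.21 and Dhcr7 1.58. In the regulators and the carrier it was Insig1 0.66, Scap -0.26 and Stard4 2.08. In the fatty acid genes it was Fasn 1.70, Acaca 0.79, Scd1 -1.0, Scd2 0.86, Elovl6 2.17, Fads1 1.46 and Fads2 0.62.

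For LTA at 6 h, the KO response minus the WT response (log2, TMM, interaction term of edgeR's quasi-likelihood fit, adjusted p under 0.05, 3 libraries a group) differed from 0 as follows. In the mevalonate steps it was Acat2 1.04, Hmgcs1 0.51, Mvk 0.70, Pmvk 0.45, Mvd 1.08, Idi1 0.78 and Fdps 0.34. In the squalene steps it was Fdft1 1.16, Sqle 1.82 and Lss 1.57. Between lanosterol and cholesterol it was Cyp51 0.90, Msmo1 1.88, Nsdhl 0.73, Hsd17b7 1.14, Sc5d 1.14 and Dhcr7 2.27. In the regulators and the carrier it was Insig1 0.64, Scap -0.29 and Stard4 1.15. In the fatty acid genes it was Fasn 0.98, Acaca 0.57, Scd2 0.47, Elovl6 2.33, Fads1 1.77 and Fads2 0.42. Both sets share the untreated libraries. For LPS, total-count scaling ended the calls of Ggps1 (adjusted p = 0.698) and Scd1 (0.233), and Scap lay at 0.24. Without the filter on low counts Scap had 0.0936 and Scd1 0.0644, and without single libraries Scap had up to 0.0741 and Scd1 up to 0.105. For LTA, total-count scaling ended the call of Scap (adjusted p = 0.252). DESeq2 gave an adjusted p of 0.0947 for Acaca, 0.148 for Fads2 and 0.112 for Pmvk, and RLE size factors gave 0.0855 for Fads2 and 0.0638 for Pmvk. Without single libraries the adjusted p reached 0.0946 for Acaca, 0.156 for Fads2, 0.155 for Pmvk and 0.0536 for Scd2. A negative value means that the KO response lay below the WT response.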

How the results depend on the processing

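A change of sign was counted only where the gene was called in the main or the other fit. Of 627 gene results, 22 changed sign in this sense, all under total-count scaling. These were, against untreated WT, Ggps1 -0.03, Srebf2 -0.30, Tm7sf2 -0.68 and Scap -0.27 after LPS and Ggps1 -0.21, Srebf2 -0.04 and Scap -0.18 after LTA for 6 h. In KO cells at 6 h they were Fdft1 -0.01 and Scap -0.03 after LPS and Srebf1 -0.17 after LTA. In KO against WT they were Insig2 0.46, Srebf2 0.36, Tm7sf2 0.46 and Scap 0.22 after LPS and Ggps1 0.16, Srebf2 0.16, Tm7sf2 0.42 and Scap 0.11 after LTA. In the genotype difference they were Acly 0.49, Ggps1 0.05 and Scap 0.24 for LPS and Scap 0.13 for LTA. Counts under that scaling were 0 higher in WT cells after each ligand for 6 h, 6 higher and 18 lower in KO cells after LPS, 6 and 17 after LTA, 0 lower in KO against WT after each ligand, 2 higher in KO against WT after LPS for 2 h, 1 higher and 10 lower for LPS against LTA in WT cells, and 0 below in each genotype difference. The scaling moves all genes by construction.

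Without the filter on low counts, 1 gene was higher in WT cells after LTA for 2 h, 3 in KO against WT after LPS for 2 h, and 1 lay below 0 in the genotype difference for LPS. KO against WT after LPS for 2 h also had 3 higher with the 2 h libraries alone and with DESeq2. For LPS against LTA in KO cells at 6 h, 1 was higher with DESeq2, RLE factors or the replicate block, and RLE gave 2 below 0 in the genotype difference for LTA. The labels do not say that a replicate number marks the same animal across treatments. Same-numbered libraries of a genotype correlated in their deviations at -0.067 to 0.047 in the deeper set, which cannot show whether they share an animal. The pairing is thus unknown, and the main fit has no replicate block. The replicate block, beside this gene (Hmgcs1), changed 4 gene calls, all at 2 h. Without Scd1 and Scd2 the shift of the sterol to fatty acid ratio was 0.74 in WT after LPS and 0.63 after LTA, -0.37 and -0.36 in KO against WT, and -0.22 untreated. The short sterol motif stood in 3 genes. The cause of the other moves was not tested.

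Leaving out 1 library at a time gave 3 to 6 higher in WT cells after LPS for 2 h and 1 to 4 after LTA. In KO cells it gave 7 to 11 higher after LPS for 6 h and 6 to 10 after 2 h. In KO against WT it gave 3 to 6 higher untreated, 2 to 5 higher and 1 to 2 lower after LPS for 2 h, and 1 to 3 higher and 0 to 1 lower after LTA for 2 h. Of the gene values without a library, 3983 kept their side of the threshold, and 145 lost and 30 gained a call. In 0 cases did a gene called in either fit change sign. Sign changes of genes called in neither fit were not counted. The 2 h libraries, with 1334784 to 2658329 counts, limit the genes of few counts.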
